A study of Homo sapiens with 9 samples.

Results

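The 10 genes described here are IGF2, the binding proteins IGFBP1, IGFBP2, IGFBP3 and IGFBP4, the receptors INSR, IGF1R and IGF2R, and the adaptors IRS1 and IRS2. They were taken by name from the 57773 features of the deposited tables, and all 10 passed the filter on low counts. HepG2, a human hepatocellular carcinoma cell line, was exposed to tris(2-butoxyethyl) phosphate (TBOEP), an organophosphate flame retardant, and polyadenylated RNA was sequenced. The groups were 3 cultures in 0.1% DMSO alone (control), 3 in 2.5 µM TBOEP and 3 in 125 µM TBOEP with the same solvent, all for 72 h. Per the labels' protocols the cultures were seeded, exposed, extracted and sequenced separately, so the replicates are cultures of 1 line grown in serum, and the results describe that line only.

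The insulin-like growth factors are peptides related to insulin that promote growth and survival. Most of the secreted IGF is held by binding proteins, which prolong its half-life and can keep it from its receptor, and the liver is a main source of both. IGF1R and INSR are receptor tyrosine kinases that signal through the IRS adaptors to PI3K and AKT, whereas IGF2R, which also sorts lysosomal enzymes by their mannose 6-phosphate tags, takes IGF2 up for breakdown.

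At 125 µM the ligand IGF2 and all 4 binding proteins were higher than in the controls, from 1.63-fold for IGF2 to 5.06-fold for IGFBP3. IGF2R was 1.19-fold higher, IGF1R was 1.62-fold lower, and INSR, IRS1 and IRS2 did not pass the test. At 2.5 µM, IGF2 and IGFBP1, IGFBP2 and IGFBP3 were higher and no member was lower. These calls are from edgeR's quasi-likelihood test with Benjamini-Hochberg adjustment over the 12901 tested genes and a threshold of 0.05, which holds for every adjusted p below.

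The libraries held 2480964 to 11885877 reads assigned to genes, the shallowest being 2.5 µM replicate 3 and the deepest 125 µM replicate 2, so that 3 reads stood for 0.252 to 1.21 counts per 1000000 reads (CPM). Values in CPM below were scaled between libraries by TMM, a factor computed from the bulk of the genes. All 9 liver cell markers examined were detected. Their summed level was 65083 to 88385 CPM in the controls, 53310 to 65729 CPM at 2.5 µM and 38326 to 45162 CPM at 125 µM. Of the 6 fibroblast markers only PDGFRB reached 1 CPM in a group's mean; the list summed to 20.0 to 23.9, 18.2 to 26.8 and 9.63 to 13.6 CPM, with COL1A2, DCN and LUM at 0. The 4 endothelial markers in the files summed to between 1.39 and 4.73 CPM with KDR at 0, and the leukocyte list, nearly all of it LYZ, to 2428 to 3076, 2526 to 2872 and 1860 to 2060 CPM with PTPRC and CD3E at 0. The share of nuclear reads assigned to introns was 6.14% to 7.24% in the controls, 4.93% to 7.74% at 2.5 µM and 4.91% to 5.50% at 125 µM. The liver, fibroblast and leukocyte sums and the intron share were lower in every 125 µM library than in every control. Single markers differed from the sums, which ALB, APOB, SERPINA1, TF, PDGFRB and LYZ carried: from the controls to 125 µM the mean of HNF4A was 275 and 296 CPM, of TTR 137 and 154 CPM, of CD68 1.70 and 5.78 CPM and of CD14 1.20 and 1.76 CPM. Among the endothelial markers the same means were 0.39 and 2.30 CPM for TIE1, 0.20 and 1.17 CPM for CDH5 and 1.88 and 0.75 CPM for VWF. These rested on 4 to 56 reads a group. The part of these markers and of the intron share in the results was not tested. In RNA from whole cultures, fewer cells of a kind and less RNA per cell cannot be told apart.

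The stretches upstream of the start sites of 4 members are printed because these genes differed in their results: IGFBP3 was higher at both doses, IGFBP4 and IGF2R at 125 µM only, and IRS2 passed the test at neither. The RefSeq promoter table (GRCh38.p14) held 8 of the 10 members, and IGF2 and IGFBP1 were not matched. The 250 bases before each start site were located by exact match on GRCh37, the assembly that UCSC names hg19, which the files use. The IGFBP3 stretch is chr7:45960872-45961121 on the minus strand, and the start site it precedes lies 602 bases inside the gene's edge in the files. The IGFBP4 stretch is chr17:38599452-38599701 on the plus strand, that of IGF2R chr6:160389864-160390113 on the plus strand, and that of IRS2 chr13:110438931-110439180 on the minus strand. Each is written 5′ to 3′ in the direction of its gene, with the matches of the motifs searched in capitals.
IGFBP3: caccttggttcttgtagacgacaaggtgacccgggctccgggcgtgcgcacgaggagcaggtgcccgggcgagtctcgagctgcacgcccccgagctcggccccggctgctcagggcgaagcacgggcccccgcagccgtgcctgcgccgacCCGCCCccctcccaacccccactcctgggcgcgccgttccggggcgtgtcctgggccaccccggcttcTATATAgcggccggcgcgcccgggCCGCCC
IGFBP4: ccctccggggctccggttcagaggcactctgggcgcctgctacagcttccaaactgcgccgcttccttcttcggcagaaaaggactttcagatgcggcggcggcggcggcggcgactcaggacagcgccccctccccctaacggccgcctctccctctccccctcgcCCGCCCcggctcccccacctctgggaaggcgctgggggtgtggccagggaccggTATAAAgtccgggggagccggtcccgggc
IGF2R: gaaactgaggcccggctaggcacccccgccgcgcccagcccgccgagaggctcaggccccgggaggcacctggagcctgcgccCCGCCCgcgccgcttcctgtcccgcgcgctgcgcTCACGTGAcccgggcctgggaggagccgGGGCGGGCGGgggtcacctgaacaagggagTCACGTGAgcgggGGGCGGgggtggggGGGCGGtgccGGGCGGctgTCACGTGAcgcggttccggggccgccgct
IRS2: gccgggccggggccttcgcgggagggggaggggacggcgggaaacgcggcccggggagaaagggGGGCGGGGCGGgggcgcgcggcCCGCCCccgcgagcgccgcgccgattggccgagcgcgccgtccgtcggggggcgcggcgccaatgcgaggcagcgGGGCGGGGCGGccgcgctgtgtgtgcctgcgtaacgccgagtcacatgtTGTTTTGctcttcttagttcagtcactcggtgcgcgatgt
The motifs were searched on both strands and may overlap. TATAAA, the TATA box that positions the start of transcription, stood 29 to 24 bases upstream of the IGFBP4 start. Its variant TATATA stood 30 to 25 bases upstream of the IGFBP3 start. Of the 35116 upstream stretches of the same length in the table, 10.7% held TATAAA and 3.73% held TATATA. The GC box GGGCGG was in all 8 members and in 42.6% of all stretches. GC content was 76% for IGFBP3, 71.6% for IGFBP4, 79.2% for IGF2R and 76.4% for IRS2, against a median of 58% over the table. CAAAACA, the core of the insulin response sequence that FOXO factors bind, was found in IRS2 alone of the 8 members searched, 40 to 34 bases upstream. It was in 4.30% of all stretches, and the stretch before IGFBP1 was not searched. TCACGTGA, an E-box known from genes of lysosomal proteins, occurred 3 times before IGF2R, at bases 133 to 126, 75 to 68 and 29 to 22. It was in 0.854% of all stretches, and 4 of the 35116 held 3 or more copies. This motif was added after the IGF2R sequence had been seen. TGATGNAAT, the composite element bound by ATF4 with C/EBP factors, was in none of the 8 members and in 0.889% of all stretches. A match is a string of letters and not a measured binding site.

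IGF2, the fetal growth factor that many liver tumours express, lies at chr11:2150342-2170833. Its level was 4182, 5368 and 6265 CPM in control replicates 1, 2 and 3. It was 7777, 6573 and 8862 CPM at 2.5 µM and 8794, 10078 and 6845 CPM at 125 µM. Every exposed library stood above every control, and the libraries at the 2 doses overlapped. IGF2 rose by a log2 fold change of 0.70 ± 0.16 (SE, 3 libraries a group) at 125 µM, with an adjusted p of 0.00322, a call that was lost with limma on the authors' quantile-normalised signal (adjusted p = 0.0923). At 2.5 µM the log2 fold change was 0.55 ± 0.16 with an adjusted p of 0.0401. This second call was lost in 10 alternative fits, among them those without control replicate 1 (log2 fold change 0.41, adjusted p = 0.204) or without 2.5 µM replicate 3 (0.45, adjusted p = 0.147). The gene overlaps IGF2-AS and INS-IGF2 in the files, which held 38 and 2 reads in all libraries together, against 477956 for IGF2. INSR, IGF1R, IGF2R and IRS2 overlap features with 0 to 3 reads, and the other 5 members overlap none. Of the IGF2 reads 1 was assigned to introns, and 0.823% of its exon reads crossed an exon junction, compared with 23.7% for IGFBP1.

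IGFBP1, an acutely regulated liver product that insulin represses, lies at chr7:45927956-45933267. Its level was 314, 916 and 578 CPM in control replicates 1, 2 and 3. It reached 1401, 1239 and 2216 CPM at 2.5 µM and 2293, 2765 and 2588 CPM at 125 µM. The 3 groups formed 3 steps with no overlap, while the controls alone spanned 2.91-fold. IGFBP1 was 4.24-fold higher at 125 µM (log2 fold change 2.08 ± 0.29, adjusted p = 8.18e-05) and 2.69-fold higher at 2.5 µM (1.43 ± 0.28, adjusted p = 0.00968).

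IGFBP3, the main carrier of IGF in serum, is the next binding-protein gene along the chromosome, at chr7:45951949-45961473, 18681 bases from IGFBP1. Its controls held 30.3, 76.2 and 47.7 CPM in replicates 1, 2 and 3. The 2.5 µM libraries held 124, 123 and 201 CPM and the 125 µM libraries 227, 309.8 and 223 CPM. As with IGFBP1, the steps from control to 2.5 µM to 125 µM did not overlap, and control replicate 1 was the lowest library. The rise was 5.06-fold at 125 µM (log2 fold change 2.34 ± 0.26, adjusted p = 1.96e-05) and 2.90-fold at 2.5 µM (1.54 ± 0.26, adjusted p = 0.00693).

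IGFBP2, a carrier made in quantity by fetal liver, lies at chr2:217497551-217529159. It stood at 19.4, 38.4 and 24.4 CPM in the controls, 47.9, 54.4 and 66.2 CPM at 2.5 µM and 45.1, 62.8 and 42.9 CPM at 125 µM. Every exposed library lay above the controls, and the doses overlapped. The log2 fold change was 0.94 ± 0.21 at 125 µM (adjusted p = 0.00272) and 1.03 ± 0.21 at 2.5 µM (adjusted p = 0.0101).

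IGFBP4, a carrier that mostly inhibits IGF action and is cut by the protease PAPPA, lies at chr17:38599702-38613983. Its controls held 34.3, 26.1 and 39.2 CPM, the 2.5 µM libraries 30.0, 39.9 and 63.0 CPM, and the 125 µM libraries 74.3, 89.0 and 76.0 CPM. Only the 125 µM group was clear of the controls, and within 2.5 µM replicate 3 was the highest. IGFBP4 was 2.42-fold higher at 125 µM (log2 fold change 1.28 ± 0.20, adjusted p = 0.000181). At 2.5 µM the log2 fold change was 0.32, with a 95% interval of -0.12 to 0.76 and an adjusted p of 0.337.

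**Figure D1:**
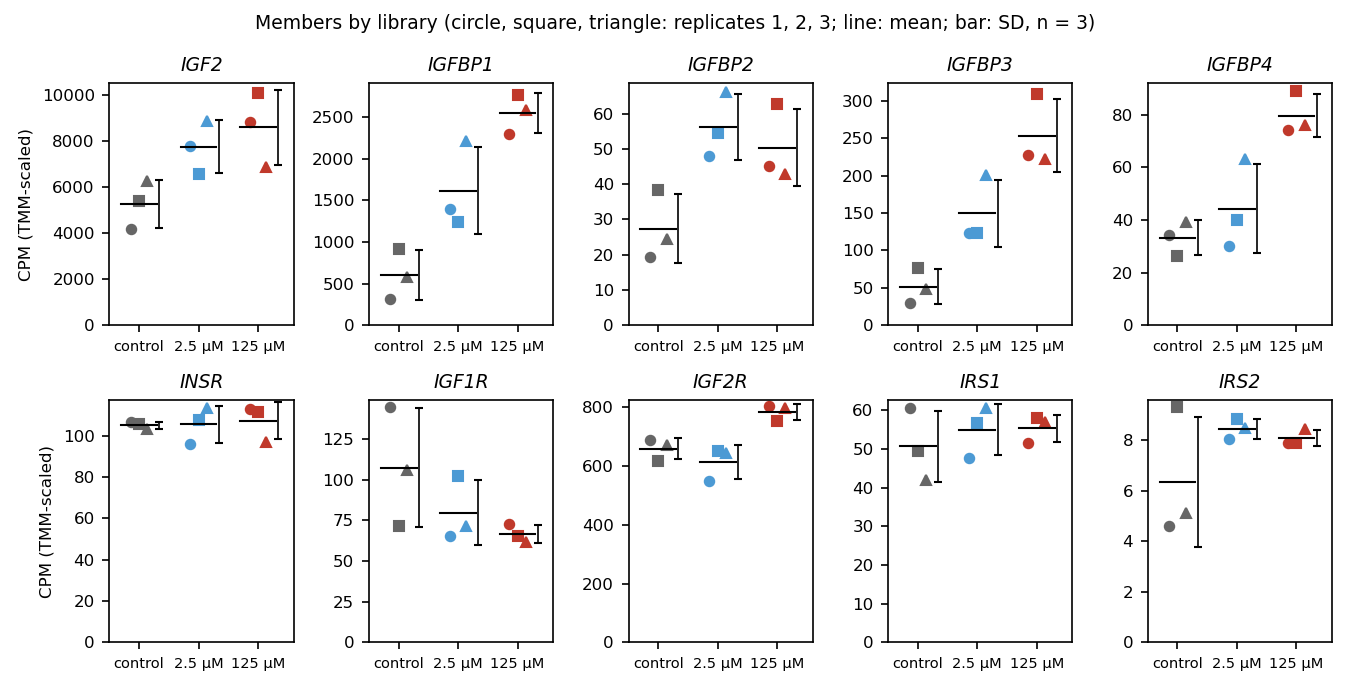
Level of each member in CPM (vertical axes, linear, from 0) in the 3 control, 3 2.5 µM and 3 125 µM libraries; symbols are replicates 1, 2 and 3, the line is the mean and the bar the SD. IGFBP1 and IGFBP3 climb in 3 separate steps, IGFBP4 and IGF2R stand apart at 125 µM, and INSR and IRS1 keep overlapping groups.

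Among the receptors, INSR, the insulin receptor (chr19:7112266-7294045), was at 107, 106 and 103 CPM in the controls. It was at 95.9, 108 and 114 CPM at 2.5 µM and at 113, 112 and 96.9 CPM at 125 µM. The groups overlapped in both comparisons. The log2 difference from the controls was 0.04 at 125 µM (95% interval -0.15 to 0.23, adjusted p = 0.769). The interval at 2.5 µM was -0.20 to 0.19, with an adjusted p of 0.992. The sign of this small difference depended on the processing at both doses.

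IGF1R, the receptor through which IGF1 and IGF2 signal (chr15:99192200-99507759), held 145, 71.6 and 106 CPM in control replicates 1, 2 and 3. It held 65.4, 102 and 71.5 CPM at 2.5 µM and 72.8, 65.2 and 61.7 CPM at 125 µM. The 125 µM libraries were close together, but control replicate 2 lay among them, so the groups overlapped. IGF1R fell by 0.70 ± 0.21 on the log2 scale at 125 µM (adjusted p = 0.0142). This call rested on control replicate 1: without it the log2 fold change was -0.40 with an adjusted p of 0.114. It was also lost without 125 µM replicate 2 (adjusted p = 0.0545), with robust dispersions (adjusted p = 0.0837) and in the limma fits (adjusted p = 0.137 to 0.159). At 2.5 µM it was -0.43 (95% interval -0.86 to 0.00, adjusted p = 0.186), -0.13 without control replicate 1 (adjusted p = 0.769), and -0.65 without control replicate 2, where it passed the test (adjusted p = 0.0168).

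IGF2R, the clearance receptor for IGF2 (chr6:160390131-160534539), held 686, 618 and 669.8 CPM in the controls and 548, 649 and 645 CPM at 2.5 µM. All 3 of its 125 µM libraries were higher, at 801, 752 and 795 CPM. The rise over the controls was small, a log2 fold change of 0.25 ± 0.09 with an adjusted p of 0.0356. That call was lost when any of the 6 libraries compared was left out, with adjusted p values of 0.0532 to 0.101. At 2.5 µM the log2 fold change was -0.10 (95% interval -0.29 to 0.09, adjusted p = 0.499).

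The adaptors carry the signal inward from the receptors. IRS1 (chr2:227596033-227664475) held 60.5, 49.5 and 42.1 CPM in the controls, 47.7, 56.7 and 60.6 CPM at 2.5 µM, and 51.5, 57.9 and 56.9 CPM at 125 µM. The groups overlapped, and the log2 difference at 125 µM had a 95% interval of -0.17 to 0.37 (adjusted p = 0.543). At 2.5 µM the interval was -0.20 to 0.35 (adjusted p = 0.746).

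IRS2 (chr13:110406184-110438915), an adaptor that conveys insulin's action in the liver, was the lowest member. It held 4.61, 9.30 and 5.13 CPM in control replicates 1, 2 and 3, 8.03, 8.83 and 8.48 CPM at 2.5 µM, and 7.89, 7.88 and 8.44 CPM at 125 µM. The 6 exposed libraries were nearly level, and control replicate 2 stood above them all while the other controls stood below. IRS2 did not pass the test at 125 µM (log2 fold change 0.37, 95% interval -0.13 to 0.87, adjusted p = 0.224) or at 2.5 µM (0.45, interval -0.04 to 0.95, adjusted p = 0.224). Without control replicate 2 it passed at both, with log2 fold changes of 0.74 (adjusted p = 0.00958) and 0.82 (adjusted p = 0.0135). Without control replicate 1 they were 0.11 (adjusted p = 0.776) and 0.19 (adjusted p = 0.740).

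At 125 µM, 6 of the 10 members were higher and 1 lower, while 40.2% of all tested genes passed the test, 20.3% higher and 19.9% lower. For 6 members the 125 µM and control libraries did not overlap, all of them higher, beside 50.9% of all tested genes (25.6% higher and 25.2% lower). The median log2 fold change was 0.54 over the members and 0.00 over all tested genes. Without any 1 library, 5 to 7 members passed, and IGFBP1, IGFBP2, IGFBP3 and IGFBP4 passed in all 21 alternative fits.

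At 2.5 µM, 4 members were higher and 0 lower, while 11.0% of all tested genes passed, 6.02% higher and 5.03% lower. The same 4 members did not overlap with the controls, beside 28.2% of all tested genes (14.4% higher and 13.8% lower). The median log2 fold change was 0.39 over the members and -0.01 over all genes. The count of members was 2 without control replicate 1, where IGFBP1 and IGFBP3 remained. The 1425 genes called became 213 without control replicate 1, 707 without control replicate 3 and 468 without 2.5 µM replicate 3. With robust dispersions only IGFBP2 passed, and IGFBP3 (adjusted p = 0.0562), IGF2 (adjusted p = 0.0658) and IGFBP1 (adjusted p = 0.0817) did not. With limma on the log2 RPKM scale 0 members passed, IGFBP3 having an adjusted p of 0.0664 with a pseudocount of 0.5.

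Both comparisons use the same control libraries, so the side-by-side values of a member are not independent of each other. In the direct comparison of the doses the controls enter the filter, the scaling and the estimate of spread, but not the group means compared. Between the doses, 14.9% of all tested genes passed, 7.48% higher at 125 µM and 7.44% lower, and 3 members were higher and 0 lower. IGFBP4 was 1.94-fold higher at 125 µM than at 2.5 µM (log2 fold change 0.96 ± 0.19, adjusted p = 0.00458). IGF2R was 1.28-fold higher (0.35 ± 0.09, adjusted p = 0.0169) and IGFBP3 1.74-fold higher (0.80 ± 0.24, adjusted p = 0.0396). These members, with IGFBP1, were the 4 whose libraries did not overlap between the doses, all of them higher at 125 µM, beside 32.8% of all tested genes (16.9% higher and 15.9% lower). IGFBP1 did not pass (log2 fold change 0.66 ± 0.28, 95% interval 0.07 to 1.25, adjusted p = 0.125). It passed in 5 of the 21 alternative fits, among them that without 2.5 µM replicate 3 (0.95, adjusted p = 0.0346).

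For IGF2 the log2 difference between the doses was 0.15 (95% interval -0.19 to 0.49, adjusted p = 0.589) and for IGFBP2 -0.09 (interval -0.51 to 0.33, adjusted p = 0.807). These intervals do not show that the doses acted alike. IGF1R (-0.27, adjusted p = 0.424), INSR (0.04, adjusted p = 0.816), IRS1 (0.03, adjusted p = 0.915) and IRS2 (-0.08, adjusted p = 0.856) did not pass either. The median log2 difference was 0.09 over the members and 0.00 over all genes. The IGFBP3 call was lost in 11 alternative fits, for example with DESeq2 (adjusted p = 0.229), and that of IGFBP4 in the 3 limma fits (adjusted p = 0.0690 to 0.0815). The IGF2R call was lost without 125 µM replicate 1 (adjusted p = 0.0650) or 3 (adjusted p = 0.0567). Leaving out either of these left 1 member past the test, and the 1925 genes called became 1043, 799 and 1252 without 125 µM replicates 1, 2 and 3 and 1015 without 2.5 µM replicate 2.

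**Figure D2:**
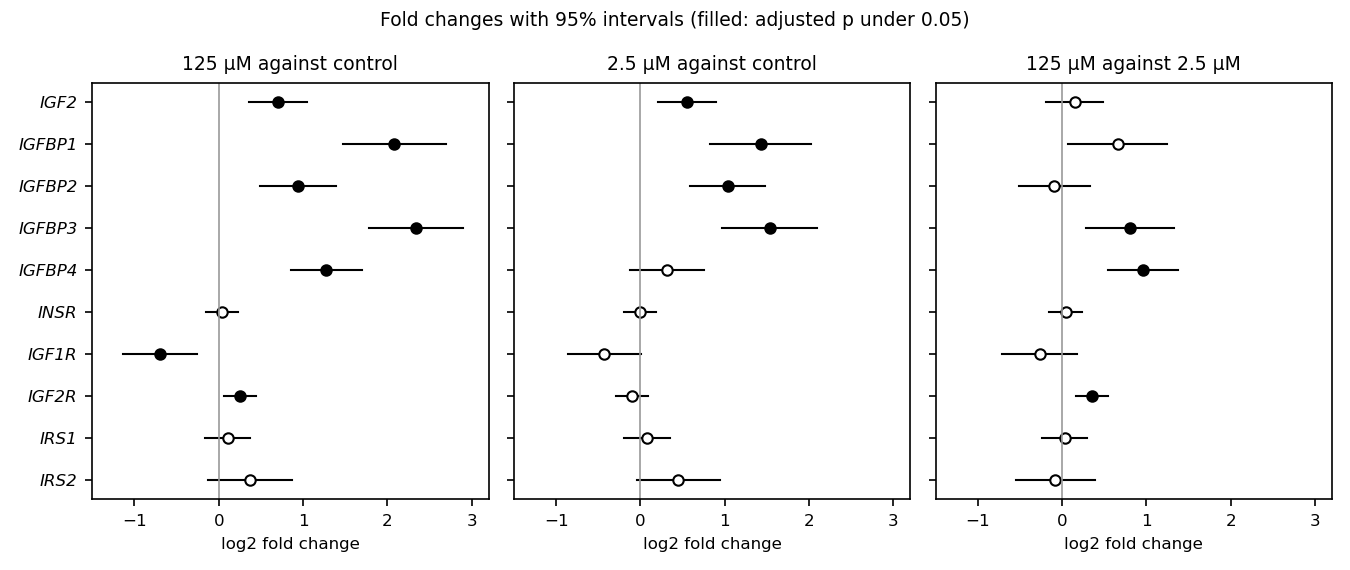
Log2 fold change of each member (horizontal axis) with its 95% interval in the 3 comparisons; filled points have an adjusted p under 0.05 in edgeR's quasi-likelihood test. The intervals of IGFBP1 and IGFBP3 lie above 0 in all 3 panels, and that of IGF1R lies below 0 only at 125 µM against control.

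To set the genes beside each other, levels were read on the RPKM scale, which divides by annotated exon length and depth. The order between genes therefore depends on those lengths. In the controls IGF2 had the highest level, 730 ± 154 RPKM (SD, n = 3), followed by IGFBP1 at 342 ± 181 and IGF2R at 61.3 ± 1.14 RPKM, and none of these overlapped its neighbour in the order. Next came IGFBP4, IGFBP3 and INSR at 14.1, 11.2 and 9.29 RPKM, each overlapping the next, then IGF1R, IGFBP2 and IRS1 at 6.89, 5.51 and 4.48 RPKM, again overlapping, and last IRS2 at 0.821 RPKM. The order differed after exposure. At 2.5 µM IGF2 and IGFBP1 overlapped, at 1091 ± 178 and 922 ± 306 RPKM. At 125 µM IGFBP1 led with 1492 ± 143 RPKM, overlapping IGF2 at 1232 ± 230 RPKM. IGFBP3 stood at 32.6 and 56.3 RPKM at the 2 doses, and at 125 µM it was clear of IGFBP4 at 35.8 RPKM. IGF1R, at 4.67 RPKM, was below IRS1 at 5.06 RPKM there, and the 2 overlapped.

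**Figure D3:**
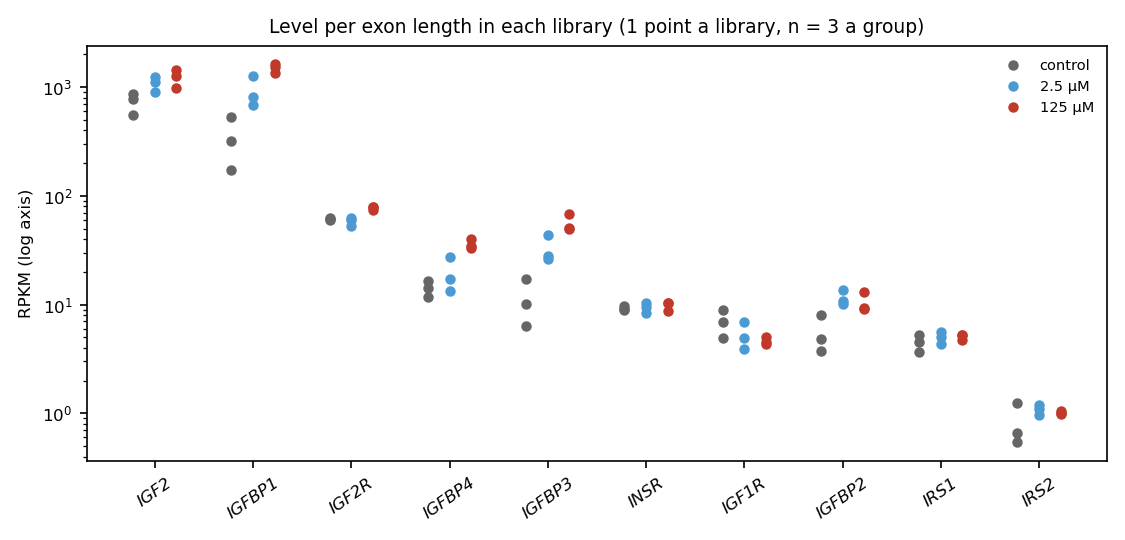
RPKM of each member in every library (vertical log axis), ordered by the control mean; 1 point is 1 library. IGF2 and IGFBP1 lie far above the others in every group, and the IGFBP1 libraries at 125 µM reach and overlap those of IGF2.

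The summed level of the 4 binding proteins was 373 ± 187 RPKM in the controls, 986 ± 324 at 2.5 µM and 1595 ± 156 at 125 µM. The share of IGFBP1 in this sum, taken in each library and averaged by group, was 90.8%, 93.5% and 93.6%. IGF2 over this sum was 2.84, 1.36 and 2.42 in control replicates 1, 2 and 3. The ratio was 1.30, 1.21 and 0.924 at 2.5 µM and 0.884, 0.831 and 0.611 at 125 µM. Thus, on the RPKM scale, IGF2 exceeded the summed binding proteins in every control and was below them in every 125 µM library. Which of them was larger depends on the annotated exon lengths, 6979 bases for IGF2. The lengths of the transcripts expressed were not measured. The ratio of IGF1R to INSR was 0.986, 0.507 and 0.756 in the controls, 0.472, 0.718 and 0.478 at 2.5 µM and 0.490, 0.446 and 0.497 at 125 µM. Its 125 µM values lay below the controls, the nearest being control replicate 2. The IRS1 to IRS2 ratio was 9.56, 3.63 and 5.55 in the controls and 4.52 to 5.34 in the 6 exposed libraries, which fell inside the span of the controls.

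IGFBP1 and IGFBP3 kept close to a fixed ratio. IGFBP1 spanned 8.80-fold and IGFBP3 10.2-fold over the 9 libraries, yet the ratio of their CPM stayed between 8.93 and 12.1. Likeness of pattern was measured as the root mean square difference of log2 CPM, each gene centred on its mean over the 9 libraries, which share their depth and scaling. By this measure each gene had the other as its nearest among the tested genes of at least 1 CPM on average, at 0.135. The next nearest were DAB2, an endocytic adaptor, for IGFBP1 (0.143) and ANKRD1, a stress-responsive nuclear cofactor, for IGFBP3 (0.219). Of the 4 tested genes within 500 kb of IGFBP1, only IGFBP3 passed the test at 125 µM, beside 40.2% of all tested genes. ADCY1 (log2 fold change -0.25, adjusted p = 0.564), SEPT7P2 (0.03, adjusted p = 0.904) and AC073115.7 (0.18, adjusted p = 0.795) did not. The control means of ADCY1 and AC073115.7 were low, at 3.84 and 2.41 CPM.

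**Figure D4:**
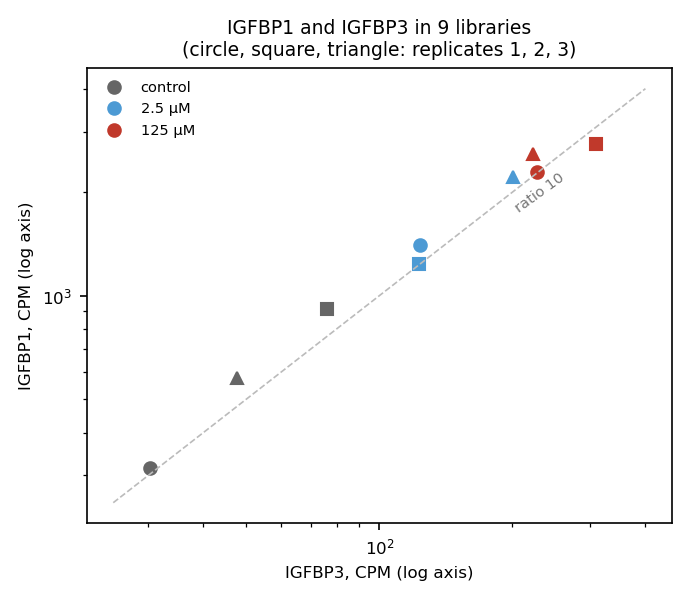
IGFBP1 against IGFBP3 in CPM (both axes log) in the 9 libraries; symbols are replicates 1, 2 and 3, colours are groups and the dashed line marks a ratio of 10. The points follow the line from control replicate 1 at the bottom to the 125 µM libraries at the top.

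The genes nearest in pattern to the other members that passed at 125 µM were DYRK4 (0.0766) and TMCC1-AS1 (0.0778) for IGF2, and UNC93A (0.160) and MAOA (0.161) for IGFBP2. For IGFBP4 they were TIMP1, a metalloproteinase inhibitor, and CKAP4, a membrane protein of the endoplasmic reticulum, both at 0.172. They were ARHGAP32 (0.105) and HDAC3 (0.138) for IGF1R and ITGA6 (0.0422) and GARS (0.0497) for IGF2R. TIMP1 rose from 10.9 ± 1.65 CPM in the controls to 27.9 ± 1.67 CPM at 125 µM (log2 fold change 1.37, adjusted p = 4.25e-05). It did not pass at 2.5 µM (0.14, adjusted p = 0.676). Because TIMP1 was chosen for its likeness to IGFBP4 in these same libraries, like results of their tests are no separate evidence. CKAP4 overlaps TCP11L2, GARS overlaps AC005154.6 and ITGA6 overlaps AC093818.1, so their counts are uncertain to the extent that reads were shared.

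Of 95 other genes of the pathway, 94 were in the files and 73 were tested. At 125 µM, 17 were higher and 28 lower, beside the 20.3% and 19.9% of all tested genes, and their median log2 fold change was -0.09. At 2.5 µM, 5 were higher and 12 lower, beside 6.02% and 5.03% of all tested genes. Between the doses 9 were higher at 125 µM and 10 lower, beside 7.48% and 7.44%. These shares of all tested genes are the background for the counts of each list below.

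Among the other ligands and carriers, IGFBP6, a carrier that prefers IGF2, was the only one of 8 to be tested. It stood at 1.95 ± 0.51 CPM in the controls, 5.96 ± 1.83 CPM at 2.5 µM and 11.4 ± 1.87 CPM at 125 µM, and rose at 125 µM (log2 fold change 2.48 ± 0.26, adjusted p = 1.06e-05), at 2.5 µM (1.38 ± 0.29, adjusted p = 0.0108) and between the doses (1.10 ± 0.22, adjusted p = 0.00373). IGF1 had 1, 4 and 2 reads summed over the 3 libraries of the control, 2.5 µM and 125 µM groups, and IGFALS, the third partner of the serum IGF complex, had 3, 2 and 1. IGFBP5 had 1, 15 and 8 reads and IGFBP7 had 20, 29 and 19. INS had 0. Of the 4 tested proteases and inhibitors, PAPPA, which cuts IGFBP4, was lower at 125 µM (log2 fold change -1.84 ± 0.35, adjusted p = 0.000957), at 1.62 ± 0.50 CPM against 4.95 ± 1.95 CPM. It was also lower between the doses (-1.16, adjusted p = 0.0481), at 1.62 against 3.00 CPM, but the libraries of the 2 doses overlapped.

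Of the 3 tested genes of the IGF2 locus and IGF2 messenger binding, IGF2BP2 was lower at 125 µM (log2 fold change -0.32 ± 0.08, adjusted p = 0.00593). H19, the imprinted neighbour of IGF2, was not tested, with 9, 4 and 25 reads in the 3 groups. Of the 5 genes of mannose 6-phosphate sorting, GNPTAB (-0.32 ± 0.09, adjusted p = 0.0141) and NAGPA (-0.63 ± 0.19, adjusted p = 0.0155) were lower. Both act in building the tag IGF2R reads. The other 3 did not pass, among them GNPTG (0.001, adjusted p = 0.995), which overlaps UNKL and is named here after its values were seen. NAGPA overlaps ALG1. None of these 8 genes passed at 2.5 µM.

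Of the 17 tested adaptors and receptor-level regulators, 4 were higher and 6 lower at 125 µM (20.3% and 19.9% of all tested genes), and 1 and 3 at 2.5 µM (6.02% and 5.03%). GRB14, which binds and inhibits the insulin receptor, was 4.00-fold lower at 125 µM, at 6.84 ± 1.60 CPM against 27.1 ± 12.3 CPM (adjusted p = 6.42e-05), and 1.74-fold lower at 2.5 µM (adjusted p = 0.0443). The related adaptor GRB7 fell by 0.89 ± 0.11 on the log2 scale at 125 µM (adjusted p = 5.02e-05) and by 0.40 ± 0.11 at 2.5 µM (adjusted p = 0.0334). FURIN, a protease that matures the receptor precursors, was 2.96-fold lower at 125 µM (adjusted p = 0.00158) and 2.34-fold lower at 2.5 µM (adjusted p = 0.0245), where its libraries overlapped the controls. SHC1, which couples receptors to RAS, was higher at 125 µM (0.54 ± 0.09, adjusted p = 0.000358). It overlaps PYGO2.

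Of the 18 tested genes of PI3K and AKT, 4 were higher and 9 lower at 125 µM (20.3% and 19.9% of all tested genes), and 2 and 4 at 2.5 µM (6.02% and 5.03%). TRIB3, a pseudokinase known to bind AKT and to respond to stress, was 2.62-fold higher at 125 µM (adjusted p = 9.40e-06). At 2.5 µM it was 1.40-fold higher (adjusted p = 0.0406). PIK3R1, the regulatory subunit of PI3K, fell from a mean of 75.4 to 35.7 CPM (log2 fold change -1.09 ± 0.14, adjusted p = 4.09e-05), and it was lower at 2.5 µM (-0.64 ± 0.13, adjusted p = 0.0108). Members of the FOXO family, the transcription factors that AKT keeps out of the nucleus, differed in direction. FOXO3, named here after its values were seen, was lower at 125 µM (-0.27 ± 0.10, adjusted p = 0.0329). At 2.5 µM FOXO3 did not pass (-0.18, adjusted p = 0.228). FOXO4 was lower at 125 µM (-1.27 ± 0.17, adjusted p = 6.52e-05) and at 2.5 µM (-0.63 ± 0.16, adjusted p = 0.0242), whereas FOXO1 was higher at 125 µM (0.71 ± 0.12, adjusted p = 0.000426) and at 2.5 µM (0.66 ± 0.12, adjusted p = 0.00825).

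Of the 16 tested genes of the mTOR branch, 5 were higher and 5 lower at 125 µM (20.3% and 19.9% of all tested genes), and 1 and 3 at 2.5 µM (6.02% and 5.03%). DDIT4 and SESN2, which restrain mTORC1, were higher at 125 µM by log2 fold changes of 1.02 ± 0.10 (adjusted p = 7.71e-06) and 1.18 ± 0.13 (adjusted p = 1.35e-05). DDIT4 was also higher at 2.5 µM (0.47 ± 0.10, adjusted p = 0.0134). RPS6KB1, the S6 kinase downstream of mTORC1, was lower at 125 µM (-0.72 ± 0.11, adjusted p = 0.000127) and at 2.5 µM (-0.36 ± 0.10, adjusted p = 0.0391). AKT1S1, an AKT substrate within mTORC1 that overlaps TBC1D17, was lower at 125 µM (-0.68 ± 0.13, adjusted p = 0.000704) and at 2.5 µM (-0.46 ± 0.12, adjusted p = 0.0295).

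The last list held genes taken as induced by FOXO and repressed by insulin, as IGFBP1 is. Whether each of them follows both in HepG2 was not tested. Of its 9 tested genes, 3 were higher and 4 lower at 125 µM (20.3% and 19.9% of all tested genes), and 0 and 2 at 2.5 µM (6.02% and 5.03%). BCL6, a transcriptional repressor, fell from 205 ± 62.2 CPM in the controls to 105 ± 25.2 CPM at 2.5 µM (log2 fold change -0.94 ± 0.19, adjusted p = 0.00948) and 55.0 ± 4.56 CPM at 125 µM (-1.90 ± 0.20, adjusted p = 9.46e-06). CCNG2, an atypical cyclin, was lower at 125 µM (-0.85 ± 0.16, adjusted p = 0.000841) and did not pass at 2.5 µM (-0.13, adjusted p = 0.629). CITED2, a transcriptional cofactor, was lower at 125 µM (-0.79 ± 0.15, adjusted p = 0.000856). It was also lower at 2.5 µM (-0.51 ± 0.15, adjusted p = 0.0388), where its libraries overlapped the controls. PPARGC1A, a coactivator of gluconeogenesis, was higher at 125 µM (0.72 ± 0.08, adjusted p = 2.58e-05). Also higher there were TXNIP (1.44 ± 0.30, adjusted p = 0.00161) and PCK1 (0.46 ± 0.14, adjusted p = 0.0169). SESN1 was lower (-0.54 ± 0.10, adjusted p = 0.000868). TXNIP, PCK1 and SESN1 are named here after their values were seen.

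Between the doses, 3 of 16 mTOR genes were higher at 125 µM and 1 lower, 2 of 18 PI3K and AKT genes higher and 2 lower, and 1 of 17 adaptors and regulators higher and 2 lower, beside 7.48% and 7.44% of all tested genes. None of the tested genes of the IGF2 locus or of mannose 6-phosphate sorting passed. SESN2 (log2 difference 0.99 ± 0.12, adjusted p = 0.000171), TRIB3 (0.90 ± 0.14, adjusted p = 0.000806) and DDIT4 (0.55 ± 0.10, adjusted p = 0.00209) were higher at 125 µM than at 2.5 µM. So were EIF4EBP1, the translational repressor that mTORC1 inactivates (0.43 ± 0.12, adjusted p = 0.0239), and SHC1 (0.34 ± 0.09, adjusted p = 0.0217). PIK3CD, a catalytic subunit of PI3K whose gene overlaps CLSTN1, was higher as well (0.36 ± 0.10, adjusted p = 0.0217). PPARGC1A (0.50 ± 0.08, adjusted p = 0.00131) and TXNIP, a brake on glucose uptake (1.36 ± 0.29, adjusted p = 0.00583), were higher in the list taken as FOXO-induced. In the same list BCL6 (-0.96 ± 0.20, adjusted p = 0.00489), CCNG2 (-0.72 ± 0.16, adjusted p = 0.00807), SESN1 (-0.42 ± 0.10, adjusted p = 0.0138) and G6PC (-1.15 ± 0.32, adjusted p = 0.0280) were lower, so that of 9 tested 2 were higher and 4 lower. The mean of G6PC was 22.5 CPM in the controls, 44.4 CPM at 2.5 µM and 18.4 CPM at 125 µM. Against the controls G6PC passed at neither 125 µM (-0.12, adjusted p = 0.810) nor 2.5 µM (1.03, adjusted p = 0.0567). CCNG2, SESN1 and G6PC are named here after their values were seen. GRB14 (-1.20 ± 0.28, adjusted p = 0.0100), GRB7 (-0.49 ± 0.12, adjusted p = 0.0116) and FOXO4 (-0.64 ± 0.17, adjusted p = 0.0231) were lower.

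**Figure D5:**
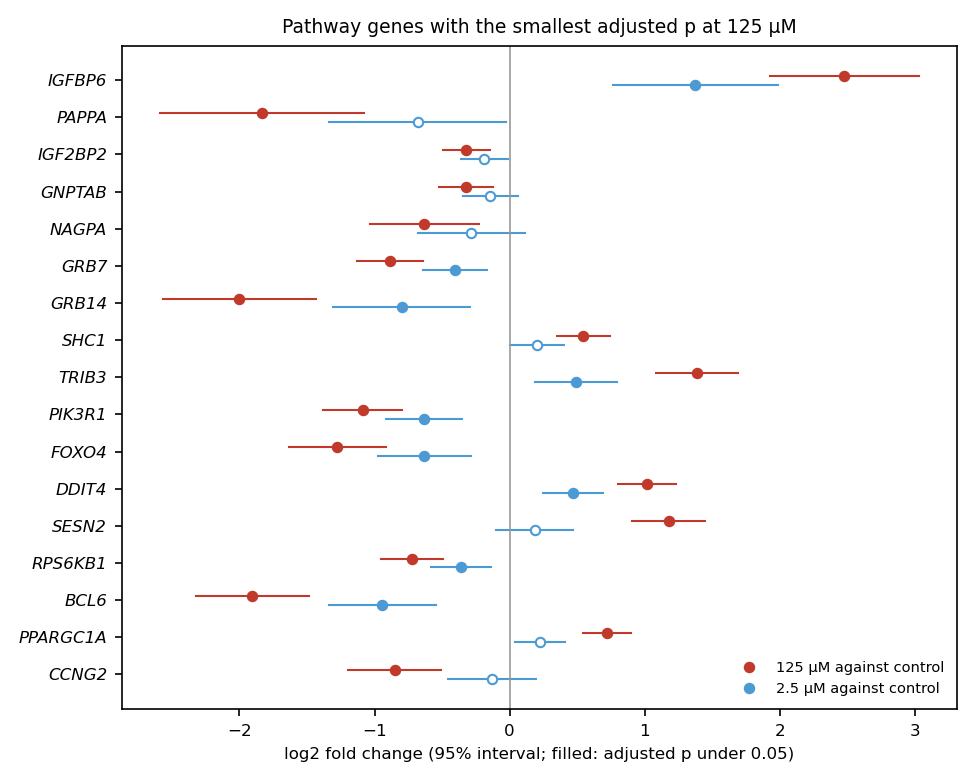
Log2 fold change (horizontal axis) with its 95% interval for the pathway genes with the smallest adjusted p of each list at 125 µM, against control at 125 µM (red) and 2.5 µM (blue); filled points have an adjusted p under 0.05. IGFBP6 lies farthest to the right at both doses, and GRB14, BCL6 and PAPPA farthest to the left at 125 µM.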

How the data were processed

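RNA was measured in 9 HepG2 libraries, per the labels. RNA was taken up in TRIzol and cleaned on RNeasy columns, made into libraries with the TruSeq Stranded mRNA kit and read from both ends for 50 bases on an Illumina HiSeq, per the labels' protocols. Alignment to hg19 and assignment to genes were done in CLC Genomics Workbench, as the series' design text states. Neither the program's version nor whether strand was used in counting is given in the sources used here. The deposited counts of total, unique, exon or intron reads per gene are whole and without normalisation, per the file headers. RPKM, as deposited, divides exon reads by exon length and depth. The normalised signal comes from quantile normalisation by the authors, as the design text states.

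Total gene reads of all 9 libraries in 3 groups were fitted with edgeR 4.0.16 (R 4.3.3). filterByExpr kept 12901 of 57773 features, TMM set the scaling, and each two-sided contrast was adjusted by the Benjamini-Hochberg method and called at 0.05. Between replicates, the common coefficient of variation of the fit was 10.0%. The script was tested on simulated data. Standard errors are the log2 fold change over the square root of F. Mean RPKM, ratios and sums were computed from the deposited RPKM. Starts were raised by 1 to count positions from 1.

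Named are all 10 members and up to 3 genes of each pathway list with the smallest adjusted p past the threshold in a comparison. Also named are the 2 genes nearest in pattern to each member past the threshold at 125 µM, among tested genes of at least 1 CPM on average. The members, lists, motifs and tests were chosen with earlier results of these data known. Alternatives were upper-quartile scaling, DESeq2 1.42.0, no filter, a filter of 10 reads and 1 CPM in 3 libraries, robust dispersions, the replicate number as a block, only the groups compared, exon or unique reads, limma 3.58.1 on log2(RPKM + 0.5), log2(RPKM + 0.1) or log2(normalised signal + 1), and leaving out each library.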

Additional observations from a re-analysis of the deposited data

How the results depend on the processing

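Over the 10 members and 3 comparisons, 549 of 630 alternative values kept the direction and the side of the threshold, 53 no longer passed, 10 newly passed and 18 changed sign. Genes past the threshold at 125 µM numbered 5180 (3557 to 5351 without 1 library) and members 7 (5 to 7). At 2.5 µM the 1425 genes became 731 with only the groups compared, 216 with limma on RPKM + 0.5, 0 on RPKM + 0.1 (3332 at an unadjusted p under 0.05) and 227 on the quantile-normalised signal, and 213 to 2050 without 1 library; the 4 members became 1, 0, 0 and 1 with robust dispersions and those 3 limma fits, the last being IGF2R, lower, and 2 to 6 without 1 library. Between the doses the 1925 genes became 968, 864 and 916 and the 3 members 1, 1 and 1 in the 3 limma fits, and 799 to 2230 genes and 1 to 4 members without 1 library. The cause was not tested. Limma on RPKM + 0.5 moved the share of calls that were higher from 50.5% to 66.5% at 125 µM, from 54.5% to 79.2% at 2.5 µM (74.9% on the quantile-normalised signal) and from 50.1% to 68.8% between the doses; RPKM + 0.1 moved the median of all genes at 125 µM to 0.11.

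The sign changes were in differences near 0 that did not pass the test. The log2 fold change of INSR was -0.0325 at 125 µM on exon reads, and at 2.5 µM it was 0.0215 with upper-quartile scaling, 0.0098 with only the groups compared, 0.0130 and 0.0134 on RPKM with pseudocounts of 0.5 and 0.1, and -0.0422 to 0.0645 without 1 library. That of IRS1 was -0.0239 to 0.235 at 2.5 µM without 1 library. Between the doses IRS1 was at -0.0374 on exon reads, -0.0520 on the quantile-normalised signal and -0.0730 to 0.0828 without 1 library, INSR at -0.0269 to 0.0987 and IGFBP2 at -0.316 to 0.00732 without 1 library.

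Correlations of same-numbered deviations were -0.24 to 0.18 over 9 pairs, 4 above 0.1, and those of different-numbered deviations were -0.27 to 0.27. Deviations from means of 3 libraries cannot show whether the replicate numbers pair the libraries. With the replicate number as a block, 5066, 1274 and 1771 genes and 6, 3 and 3 members passed at 125 µM, at 2.5 µM and between the doses, and IGF2R at 125 µM (adjusted p = 0.0527) and IGF2 at 2.5 µM (adjusted p = 0.0610) did not. The shallowest libraries held 2480964 and 2670690 reads, where 3 reads stood for 1.21 and 1.12 CPM, and IRS2 had the fewest reads of the members, 494 in all 9 libraries.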

Other observations

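Around IGFBP4, 20 other tested genes lay within 500 kb, of which 2 were higher and 5 lower at 125 µM, beside 20.3% and 19.9% of all tested genes. TNS4, a focal adhesion protein whose gene lies 18096 bases from IGFBP4, was higher there (log2 fold change 2.28 ± 0.35, adjusted p = 0.000169), at 18.6 CPM against 4.12 CPM in the controls. TOP2A, the topoisomerase of dividing cells, 25499 bases away, was lower (-0.52 ± 0.08, adjusted p = 0.000224). The others past the test were TMEM99, which overlaps KRT10, higher, and MSL1, RAPGEFL1, WIPF2 and THRA, which overlaps MED24 and NR1D1, lower. Around IGFBP2, 1 of 4 was higher, the ribosomal protein gene RPL37A (0.89 ± 0.14, adjusted p = 0.000279). Around IGF2, 4 of 10 were higher and 2 lower, beside the same shares, among them TNNI2 (1.29 ± 0.23, adjusted p = 0.000549) and KCNQ1 (-0.70 ± 0.23, adjusted p = 0.0231). These genes were named after their values were seen.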
